A study of Mus musculus with 5 samples.

Results

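The glutathione S-transferase genes Gstm1, Gstm2, Gstm6, Gstm7, Gsta2, Gsta3, Gsta4, Gstt1, Gstp1 and Gsto1 were followed through single-cell RNA profiles of the mouse ovary. The 10 genes were taken by name from the 31053 genes of the count tables, in which 27 genes belong to the transferase families, and each of the 10 had 1 row in every table. Ovaries came from untreated female C57BL6/J mice at 2, 3, 4, 5 and 6 wk of age, an interval that spans the growth and turnover of the first wave of follicles and the approach of puberty. Live cells were sorted after dissociation with trypsin and captured with the 10x Genomics 3′ chemistry, and the number of mice behind a library is not given in the sources used here. Each age was 1 library, so no age had a replicate, no test was run, and age and library cannot be told apart.

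Glutathione S-transferases are enzymes that join the tripeptide glutathione to reactive, electrophilic compounds, which makes these more soluble and ready for export. The cytosolic enzymes fall into classes named by Greek letters, among them mu (Gstm), alpha (Gsta), theta (Gstt), pi (Gstp) and omega (Gsto), and several also bind steroids or reduce lipid peroxides. In the ovary, steroid synthesis in mitochondria yields reactive oxygen species, and alpha class transferases are known from steroid-producing cells. Many transferase genes are induced by the transcription factor NRF2 through the antioxidant response element.

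The mu genes of the set lie on the minus strand of chromosome 3 in a stretch of 91.6 kb (GRCm38, chr3:107926334-108017973), which also holds Gstm3. Outside this stretch, on either side, lie the mu genes Gstm5 (chr3:107895821-107898686) and Gstm4 (chr3:108040408-108044894). Gsta2 and Gsta4 lie on chromosome 9, at chr9:78331018-78355788 and chr9:78182774-78209349, while Gsta3, the third alpha gene, lies on chromosome 1 at chr1:21240589-21265661. Gstt1 lies on chromosome 10, and Gstp1 and Gsto1 on chromosome 19. Promoter sequence from RefSeq (GRCm38.p6, 250 bases before to 50 after a start site) was found for 9 of the 10 genes, in 13 windows, and Gsta4 was not among them. The antioxidant response element core, searched on both strands as TGACNNNGC, was present in 1 window of Gsta3 and 1 of Gstm7, and in 12.4% of all 32851 windows of this length. The binding site of NR5A receptors, searched as CAAGGTCA, was in none of the 13 windows and in 1.56% of all windows. The windows below are each written 5′ to 3′ on the strand of the gene. Those of Gstm2, Gstm6 and Gstm7 come from mu genes of the set that shared an age pattern in granulosa cells. Gstm1 shared this pattern too, and its windows are not printed. Gsta2 was the gene restricted most to theca-type cells and Gsta3 the alpha gene highest in pericytes. For Gstm6 and Gstm7 only 1 of their windows is printed, which for Gstm7 is the one with the element core. Capitals mark the element core, 129 bases before the start site of the printed window in Gstm7 and 121 bases before the start site in Gsta3. The annotated Gstm7 gene, on the minus strand, begins at base 107931817, inside its other window, which held no core. The core of the printed Gstm7 window thus lies within the annotated gene.
Gstm2, chr3:107986371-107986670, minus strand: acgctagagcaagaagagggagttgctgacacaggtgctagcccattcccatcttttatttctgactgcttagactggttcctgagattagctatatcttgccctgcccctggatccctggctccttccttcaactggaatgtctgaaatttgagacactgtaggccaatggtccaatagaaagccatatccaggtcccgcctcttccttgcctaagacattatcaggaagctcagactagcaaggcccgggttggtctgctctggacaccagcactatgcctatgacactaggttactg
Gstm6, chr3:107943685-107943984, minus strand: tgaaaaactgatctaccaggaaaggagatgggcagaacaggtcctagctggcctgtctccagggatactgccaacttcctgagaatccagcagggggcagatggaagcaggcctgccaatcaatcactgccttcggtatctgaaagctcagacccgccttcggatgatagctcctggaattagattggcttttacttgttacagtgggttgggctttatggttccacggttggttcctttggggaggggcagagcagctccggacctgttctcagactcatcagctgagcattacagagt
Gstm7, chr3:107931565-107931864, minus strand: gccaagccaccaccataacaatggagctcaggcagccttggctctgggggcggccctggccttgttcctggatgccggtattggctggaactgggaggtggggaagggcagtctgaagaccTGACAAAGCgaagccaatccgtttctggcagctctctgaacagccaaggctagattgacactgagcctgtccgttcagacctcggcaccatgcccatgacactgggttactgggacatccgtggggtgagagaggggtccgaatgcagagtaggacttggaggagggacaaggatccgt
Gsta2, chr9:78347096-78347395, minus strand: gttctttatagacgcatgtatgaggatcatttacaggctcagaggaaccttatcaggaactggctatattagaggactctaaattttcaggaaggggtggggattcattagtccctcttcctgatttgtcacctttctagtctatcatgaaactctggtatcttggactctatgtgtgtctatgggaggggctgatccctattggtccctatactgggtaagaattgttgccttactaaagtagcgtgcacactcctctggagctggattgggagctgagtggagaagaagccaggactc
Gsta3, chr1:21240335-21240634, plus strand: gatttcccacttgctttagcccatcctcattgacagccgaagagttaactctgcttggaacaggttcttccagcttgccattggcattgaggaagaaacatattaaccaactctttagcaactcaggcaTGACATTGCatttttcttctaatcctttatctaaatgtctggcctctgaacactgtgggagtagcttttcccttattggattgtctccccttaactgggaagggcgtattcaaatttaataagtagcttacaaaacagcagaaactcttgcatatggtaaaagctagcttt

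The libraries held 7779 to 11077 cells and 93438618 to 144609431 UMIs (counts of distinct captured RNA molecules), with a median of 9056 to 12424 UMIs per cell. Cells were clustered with all transferase genes left out of the genes that define clusters, and clusters were named from marker genes, so that "primary-like" means that the markers of granulosa cells of primary follicles led. Of 48163 cells, 39406 fell into 29 groups, of which 23 were named from markers and 6 carry the names of their 2 leading genes. A level, in CPM, is the share of a gene among all UMIs of the same cells, scaled to 1000000, and 95% intervals are exact Poisson intervals that cover counting error only. Of 47890 cell barcodes, 273 occurred in at least 2 libraries. Markers of the labelled tissue were present, since granulosa-like cells (18181) and stromal-like cells (14192) made up most of the ovary, while no cluster was named from germ cell markers. No cluster met the markers of secondary follicles either, so growing follicles between primary and antral appear here only under their cycling or leading genes.

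All 10 transferases were detected in every library. Gstm1 and Gstm2 were found in every one of the 28 groups with at least 10 cells in each library, and their median levels over these groups were 499 and 272 CPM. Gstm6 and Gsta2 were the least evenly spread, since the highest group stood 34.4 and 237 times above the median group, while that of Gsto1 and Gstp1 stood 1.96 and 2.10 times above it. Sorted by level, the 27 neighbouring pairs of groups overlapped in their ranges over the 5 libraries in every gene but Gstm2 and Gsta3, where 26 did. These ranges run over the 5 ages, so they include change with age, and neighbours were not compared within each library here. By the same ranges the top group overlapped 1 other group in Gsta2 and Gsta3, 9 in Gstm1 and all 27 in Gstp1.

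**Figure D1:**
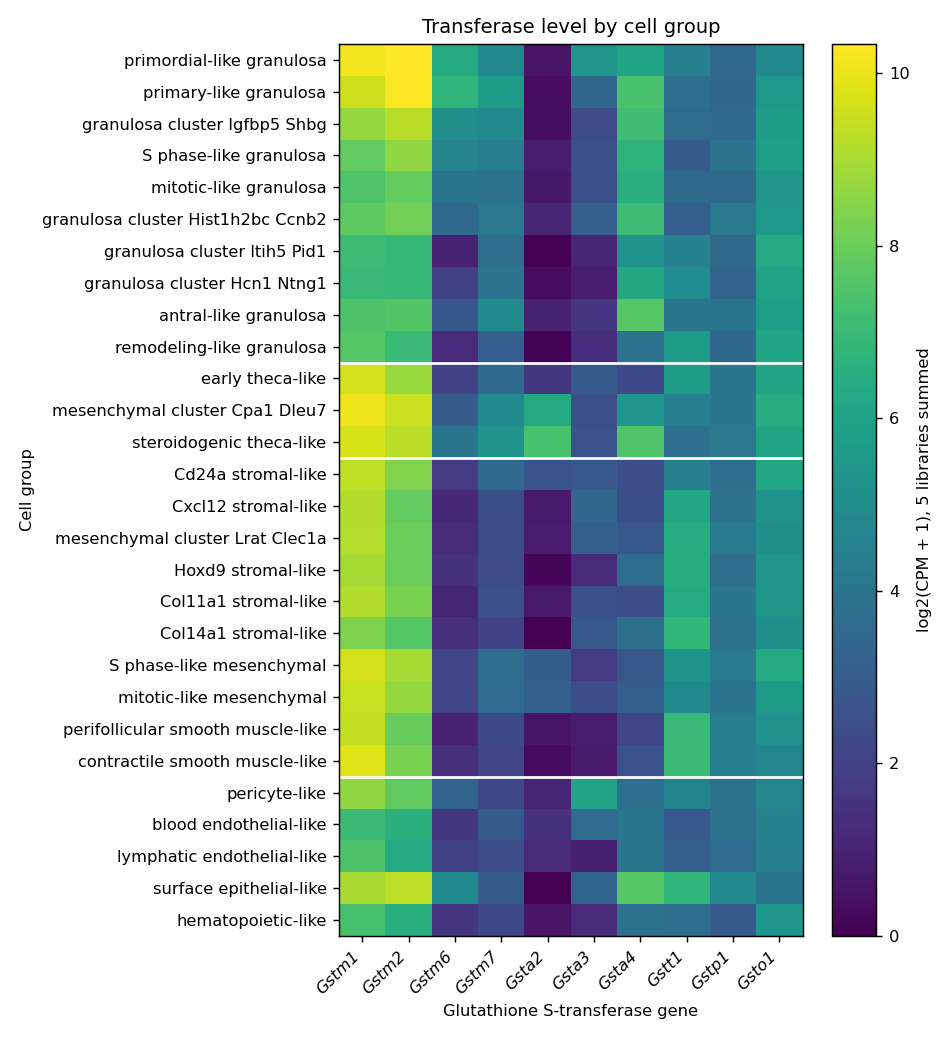
Level of the 10 transferase genes (columns) in 28 cell groups (rows) as log2(CPM + 1) of UMIs summed over the 5 libraries, with white lines between granulosa, theca-type, other mesenchymal and remaining groups. The Gstm2 and Gstm6 columns are brightest at the primordial-like and primary-like rows (1293 and 1289 CPM for Gstm2), Gsta2 is above 10 CPM in 2 rows only, and Gstt1 is brightest in smooth muscle. Colours should be read down a column, since CPM values of different genes are not corrected for length or capture.

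Among the 10 granulosa groups, Gstm1, Gstm2 and Gstm6 were highest in granulosa cells of the smallest follicles. In primary-like granulosa cells Gstm2 stood at 1662, 1147, 962, 1005 and 1008 CPM at 2, 3, 4, 5 and 6 wk, and in antral-like cells at 639, 159.9, 132, 151 and 145 CPM. Gstm6, whose transcript was 88.6% identical to that of Gstm2 over 623 aligned bases, stood at 165, 84.1, 50.048, 56.4 and 76.9 CPM in primary-like cells and at 30.1, 3.57, 2.00, 2.41 and 4.55 CPM in antral-like cells. In both genes every primary-like value lay above every antral-like value, and the antral-like cells were highest at 2 wk. Whether the antral-like cells at 2 wk came from antral follicles was not tested, since the group was named from markers alone.

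The primary-like over antral-like ratio of Gstm2 was 2.60, 7.17, 7.31, 6.65 and 6.95 (median 6.95) and that of Gstm6 5.49, 23.5, 25.1, 23.4 and 16.9 (median 23.4). These were the only 2 of the 9 transferases with at least 200 UMIs that were at least 2-fold apart in the same direction in all 5 libraries. Over all 10414 genes the same rule was met by 5.06%, by 3.42% as higher and by 1.64% as lower. Gstm1, the most abundant mu gene by UMIs, came close, with ratios of 1.98, 3.86, 3.60, 4.53 and 4.62 and an interval of 1.87 to 2.10 at 2 wk, and without the 2 wk library it passed as well. Gstm7 was not separated between the stages, at 0.868 to 1.93, and Gsta3 was higher in primary-like cells in every library but by only 1.39-fold at 3 wk, so that it passed only without the 3 wk library. At a coarser clustering (resolution 0.6) Gstm6 stayed past the limit at a lower median of 7.96 and Gstm2, at a median of 4.72, did not pass in every library, while Gsta4 was past it as lower in primary-like cells.

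Primordial-like granulosa cells, the flat cells of resting follicles, were close to the primary-like cells in Gstm2, at 1392, 1373, 915, 1158 and 1218 CPM, and had the highest Gstm1 of the 28 groups, at 1256, 1128, 938, 1145 and 828 CPM. Of the mu genes Gstm6 was also high in these cells, at 109, 51.8, 32.9, 65.0 and 74.3 CPM, and Gstm7 stood at 36.1, 26.9, 16.5, 23.4 and 22.6 CPM. The primary-like group joined a cluster led by H19, Cited4 and Ifitm1 (1465 cells) and a cluster led by Gldn and Wnt6 (1005 cells), and Gstm6 itself was among the leading genes of the second although it had no part in building it. Gstm6 stood at 151, 80.1, 43.6, 40.8 and 62.6 CPM in the first and 179, 89.6, 59.6, 72.0 and 88.6 CPM in the second. A UMI of Gstm6 was seen in 54.7% (exact binomial interval 52.7% to 56.7%) of primary-like cells, against 6.69% (exact binomial interval 5.54% to 8.002%) of antral-like cells and 1.21% of hematopoietic-like cells, whose median depths were 13022.5, 15746 and 6619 UMIs. With cells of at least 5000 UMIs thinned to 5000 and the others left out, the shares were 33.3%, 2.43% and 0.340%. This kept 294 of 497 hematopoietic-like cells.

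Gsta4, an alpha transferase known for conjugating the lipid peroxidation product hydroxynonenal, followed another course through the granulosa stages. Antral-like cells held 452, 184, 55.0, 216 and 243 CPM, primary-like cells 283, 88.1, 62.5, 107 and 107 CPM and primordial-like cells 101, 34.7, 33.974, 32.5 and 48.9 CPM. Remodeling-like granulosa cells, which carry markers of follicles in turnover, held 148, 30.3, 9.78, 7.08 and 14.1 CPM and were below antral-like cells in every library. Gstt1, a theta transferase, ran the other way, at 41.2, 39.7, 53.3, 48.5 and 44.8 CPM in remodeling-like and 19.4, 13.7, 16.1, 17.1 and 12.515 CPM in antral-like cells.

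The remodeling-like over antral-like ratio was 0.327, 0.164, 0.178, 0.0328 and 0.0581 for Gsta4 and 2.12, 2.90, 3.31, 2.84 and 3.58 for Gstt1. They were the 2 of 8 tested transferases past 2-fold in all 5 libraries, where 3.61% of 10573 genes were (2.42% higher and 1.19% lower). Gstm7 was lower in remodeling-like cells in each library (0.427, 0.718, 0.326, 0.275 and 0.222), but its 3 wk ratio kept it from passing. Gstm1 was above 1 in 4 of the 5 libraries, at 2.09, 3.38, 0.904, 1.68 and 1.41, and Gstm2 in 2 of them, at 1.74, 3.04, 0.630, 0.776 and 0.712. The remodeling-like group held only 77 cells at 2 wk and 128 at 3 wk, against 731 to 1253 later. Its larger cluster, led by S100a6, Gpx3 and Agt, and the smaller one, led by Gm15866, Ghr and Adamts5, had similar Gstt1 (49.4 and 47.6 CPM) and Gsto1 (67.1 and 69.6 CPM). Gstm1 stood at 246 CPM in the larger and 101 CPM in the smaller cluster, and Gstm2 at 165 and 58.9 CPM. All of the 2 wk cells were in the larger cluster. With levels averaged over cells instead of summed, Gsta4 alone passed, and at a resolution of 0.6 Gstm7 and Gsta4 did. The median ratio of Gstt1 was 3.29 and 3.102 under these settings, against 2.90.

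**Figure D2:**
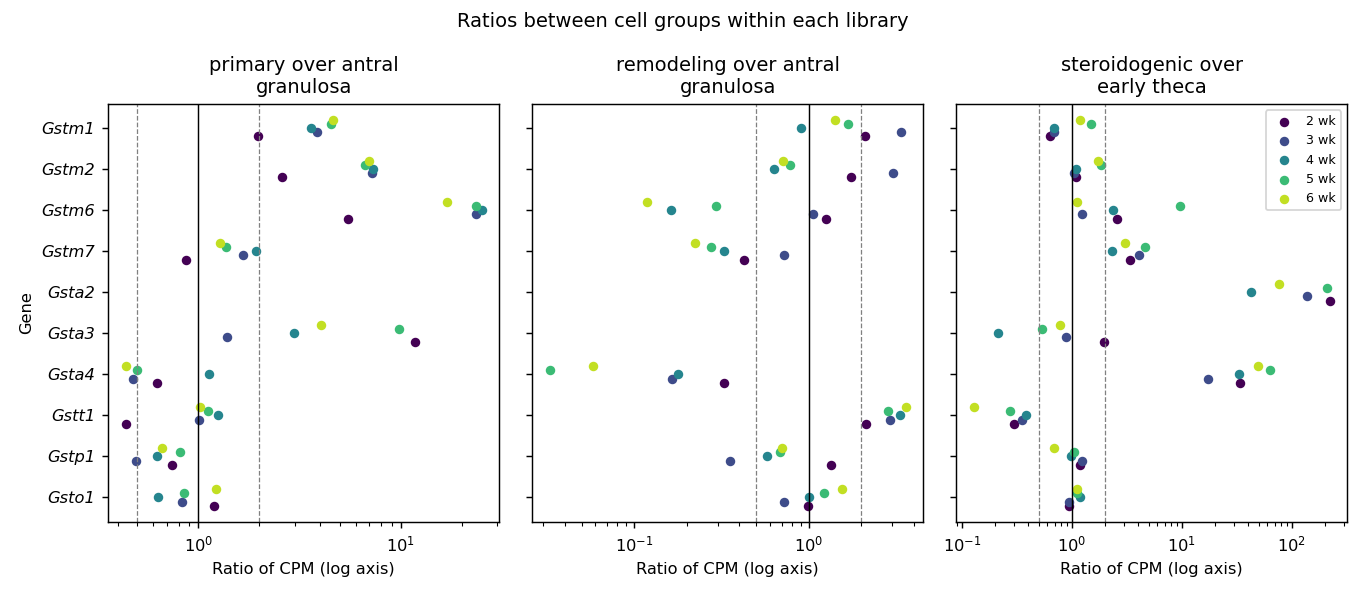
Ratio of CPM between cell groups within each library (log axis), for primary-like over antral-like granulosa, remodeling-like over antral-like granulosa and steroidogenic over early theca-like cells, with 1 point per library coloured by age. Solid lines mark a ratio of 1 and dashed lines the limits of 2-fold. Genes under 200 UMIs over both groups are not drawn. Gstm2 and Gstm6 lie wholly to the right in the first panel, Gsta4 wholly to the left in the second, and Gsta2, Gsta4 and Gstm7 wholly to the right in the third.

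Across ages, the mu genes of the set and Gsta4 were highest at 2 wk in granulosa cells and in many other groups. Gstm1, Gstm2, Gstm6, Gstm7 and Gsta4 were each highest at 2 wk in all 10 granulosa groups, a behaviour shown by 1.74% of 12782 genes. Over all 28 groups the 2 wk library was highest in 20, 19, 19, 15 and 21 for these 5 genes, in the same order. Gsta3 was highest at 2 wk in 8 of the 10 granulosa groups, while Gstt1 was so in 1 and Gsto1 in none. In all granulosa-like cells taken as 1 class, Gstm1 was 725, 352, 191, 195 and 169 CPM from 2 to 6 wk and Gstm2 1119.8, 507, 189, 225 and 236 CPM. Gstm6 was 94.9, 25.8, 5.05, 7.41 and 11.1 CPM and Gsta4 268, 79.1, 28.8, 79.4 and 92.8 CPM. In CPM the largest step came between 2 and 3 wk in all 4 genes, and Gsta4 was higher again at 5 and 6 wk than at 4 wk.

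At 5 wk over 2 wk, 7 of the 9 transferases tested in granulosa-like cells were past 2-fold, 6 lower and 1 higher. The 2 wk table was made with version 3.1.0 of the counting program Cell Ranger and the 5 wk table with version 6.0.1, so that age and version cannot be told apart in these ratios. Over 11489 genes the share was 10.1% in either direction, 4.83% lower and 5.24% higher. The ratio was 0.269 (0.263 to 0.275) for Gstm1, 0.201 (0.197 to 0.205) for Gstm2, 0.0781 (0.0699 to 0.0870) for Gstm6 and 0.225 (0.204 to 0.247) for Gstm7. Among the alpha genes it was 0.225 (0.187 to 0.270) for Gsta3 and 0.297 (0.286 to 0.308) for Gsta4. Gstt1 was the gene that was higher, at 2.20 (1.98 to 2.44), with 10.3, 12.9, 24.5, 22.7 and 17.957 CPM over the ages. Gsto1 and Gstp1 stayed within the limit at 1.499 and 1.30. The median log2 ratio of the 9 transferases was -1.90, against -0.05 over all genes tested.

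The make-up of the granulosa class moved with age as well. Primary-like cells were 769 of 3101 granulosa-like cells at 2 wk and 234 of 2572 at 5 wk, while remodeling-like cells went from 77 to 731. Within primary-like cells alone, Gstm6 at 0.341 (0.291 to 0.398), Gstm7 at 0.487 (0.392 to 0.598) and Gsta4 at 0.379 (0.338 to 0.424) were past 2-fold lower of 8 tested, against 2.01% of 7565 genes in either direction (0.978% higher and 1.03% lower). With stricter cell filters Gstm7 was no longer past the limit there. Gstm1 and Gstm2 were lower by less, at 0.563 and 0.605, and Gsta3 was at 0.767 (0.515 to 1.11). Within antral-like cells Gstm1 at 0.246 (0.222 to 0.272), Gstm2 at 0.237 (0.216 to 0.259), Gstm7 at 0.307 (0.240 to 0.390) and Gsta4 at 0.478 (0.439 to 0.521) were past it of 5 tested, against 5.57% of 4778 genes (2.83% higher and 2.74% lower). Gsta4 there was within the limit at a resolution of 0.6 and with levels averaged over cells. The antral-like group was named from markers alone, and the 2 wk library held 160 of its cells. The paper's whole-ovary counts list no antral follicles at the youngest age, although its text also describes first-wave antral follicles then. Whether the antral-like cells at 2 wk came from antral follicles was not tested, so stage and age are not separated in the antral-like ratios. Gstt1, higher in the class as a whole, was 2.23 (1.60 to 3.09) within primary-like cells, from 60 and 109 UMIs at 5 and 2 wk, and 0.880 (0.608 to 1.29) within antral-like cells, from 78 and 49 UMIs, both under the 200 UMIs asked for. Within remodeling-like cells it was 1.18.

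Remodeling-like cells spread widely over ages. Their Gstm2 was 1110.0, 486, 83.0, 117 and 103 CPM and their Gstm1 1028, 597, 154, 203 and 157 CPM, and the few remodeling-like cells of the 2 wk library were near its primary-like cells in Gstm1 (976 CPM). The 5 wk over 2 wk ratio there was 0.198 (0.183 to 0.214) for Gstm1, 0.106 (0.0971 to 0.115) for Gstm2 and 0.0479 (0.0357 to 0.0641) for Gsta4, and 2.05 (1.40 to 3.13) for Gsto1, the single gene that was higher, against 10.6% of 6688 genes past 2-fold (6.74% higher and 3.86% lower). Gsto1 rested on 27 UMIs at 2 wk and was within the limit with stricter cell filters, at a resolution of 0.6 and with levels averaged over cells. In primordial-like cells, of which the 6 wk library held 80, Gstm2 at 6 wk (1218 CPM) stood against 1392 CPM at 2 wk. Granulosa genes had UMIs in cells that should lack them, which free RNA in the droplets can give. Droplets without cells were not examined, so the source of these UMIs was not tested. In hematopoietic-like cells the granulosa hormone gene Inha stood at 7.10% to 16.6% of its granulosa level. Amh stood at 7.59% to 22.7% and Inhba at 1.40% to 17.1%. Among the transferases, Gstm1 stood at 43.0% to 101%, Gstm2 at 18.3% to 54.5%, Gstm6 at 0% to 49.3%, Gsta4 at 0% to 32.96% and Gstt1 at 28.9% to 127%. Gstm1 and Gstt1 were also high in groups other than granulosa cells, and the source of their UMIs here was not tested. In hematopoietic-like cells Gstm1 was 351, 152, 193, 117 and 84.1 CPM and Gstm2 205, 136, 103, 54.0 and 44.2 CPM, both highest at 2 wk. The part of free RNA in the age pattern was not tested.

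**Figure D3:**
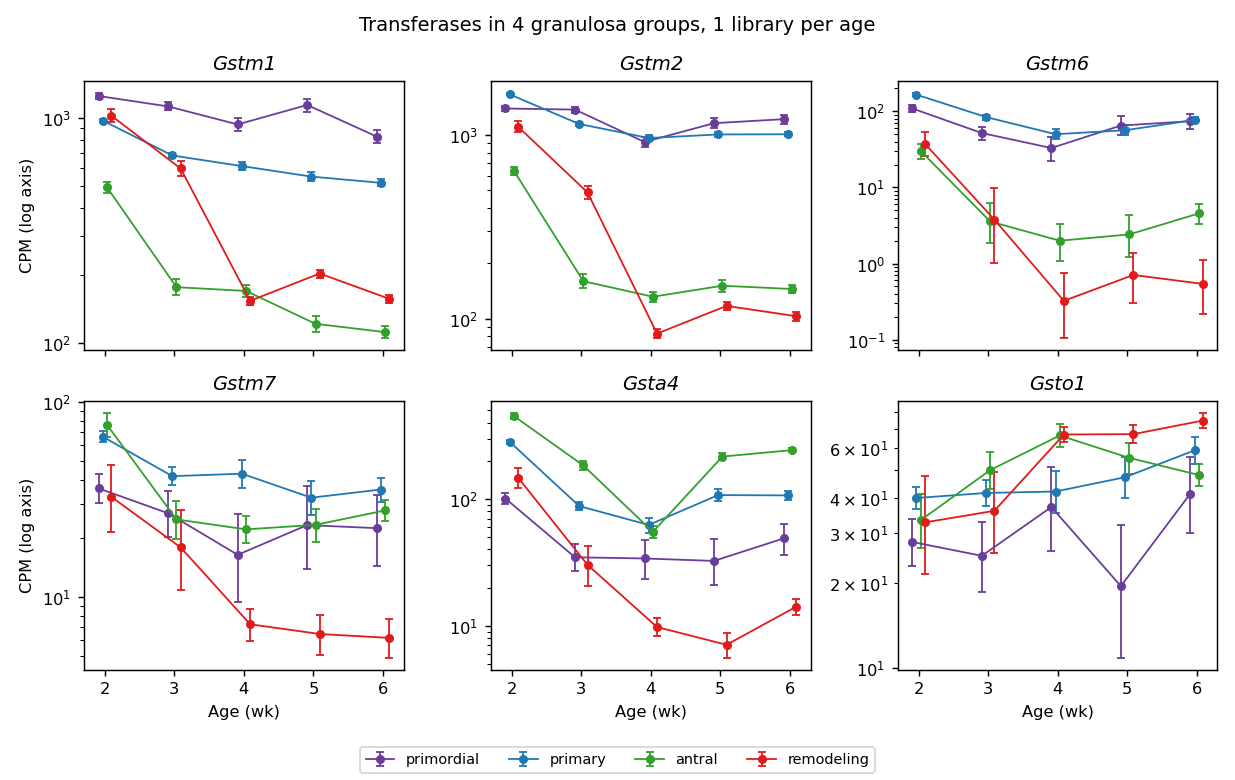
Level of 6 transferases (CPM, log axis) against age (wk) in primordial-like, primary-like, antral-like and remodeling-like granulosa cells, with exact Poisson 95% intervals and 1 library per age. The first 5 panels have their highest point at 2 wk in each of the 4 groups, and the remodeling-like line of Gstm2 drops from 1110.0 to 83.0 CPM between 2 and 4 wk. Gsto1 has no such drop.

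Gsta2 was highest in steroidogenic theca-like cells, which carry the markers of the steroid-producing theca cells around the follicle. The authors count interstitial gland cells together with steroidogenic theca cells, and the 2 were not separated here. Steroidogenic theca-like cells held 68.6, 132, 332, 131 and 214 CPM of Gsta2 at 2 to 6 wk, and early theca-like cells held 0.311, 0.960, 7.86, 0.631 and 2.82 CPM. A mesenchymal cluster led by Cpa1 and Dleu7 lay between them at 15.0, 54.5, 100.1, 117 and 94.6 CPM. It met the limits of the steroidogenic theca list, with 6 of 7 markers detected. It stayed unnamed because its leading genes held more markers of another list. At a resolution of 0.6 a cluster of 635 cells led by Cpa1 and Stc1 was named steroidogenic theca. The steroidogenic theca-like cells and the Cpa1 Dleu7 cluster were both above the early theca-like cells in every library. No other group reached 10 CPM with the libraries summed. The gene was listed at 0 in surface epithelial-like and Col14a1 stromal-like cells. A UMI of Gsta2 was found in 56.2% (exact binomial interval 53.0% to 59.5%) of steroidogenic theca-like cells and 1.70% of early theca-like cells, at median depths of 17224 and 13283 UMIs, and in 0.402% of hematopoietic-like cells at 6619. Among cells of at least 5000 UMIs, thinned to 5000, the shares were 38.9%, 0.975% and 0.340%.

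Of 10 transferases, 4 were past 2-fold between steroidogenic and early theca-like cells in all 5 libraries, against 9.33% of 9681 genes (4.32% higher and 5.01% lower). The ratio of Gsta2 was 221, 138, 42.2, 208 and 75.9, in which the early theca-like counts were 2 to 26 UMIs, so that at 2 wk its interval ran from 59.0 to 1857. Gsta4 was also higher in steroidogenic cells, at 217, 49.8, 111, 219 and 108 CPM against 6.37, 2.88, 3.33, 3.47 and 2.22 CPM, a ratio of 34.034, 17.3, 33.4, 63.1 and 48.8. Gstm7 stood at 41.2, 27.3, 26.8, 45.3 and 38.3 CPM against 12.3, 6.72, 11.5, 9.78 and 12.496 CPM, a ratio of 3.35, 4.06, 2.34, 4.63 and 3.07. Gstt1 was the 1 gene lower in steroidogenic cells, at 15.5, 18.7, 25.9, 9.86 and 5.26 CPM against 51.9, 53.3, 68.3, 36.3 and 41.1 CPM. Leaving out any 1 library, and each of the other settings tried, left these 4 genes past their limit. At a resolution of 0.6 the steroidogenic group also held the cluster of 635 cells led by Cpa1 and Stc1. The median ratio there was 47.9 for Gsta2, against 138, and 18.2 for Gsta4, against 34.034.

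Gstm1 and Gstm2 stayed within 2-fold between these groups, at ratios of 0.638, 0.684, 0.682, 1.51 and 1.19 and 1.09, 1.05, 1.09, 1.84 and 1.74. Gstm1 had its highest mesenchymal level in the Cpa1 Dleu7 cluster, at 1304, 1107, 1174, 833 and 1009.6 CPM. The range of Gstm1 there overlapped the early theca-like range of 1007, 817, 853, 640.5 and 685 CPM. That cluster was not uniform over libraries, since its Gsta4 was 9.81, 19.5, 22.507, 118 and 20.3 CPM and its Cyp17a1, the androgen-forming enzyme of theca cells, 11.5, 0.454, 14.8, 1071 and 4.86 CPM, both apart at 5 wk. The steroidogenic group was uneven as well, with Cyp17a1 at 2633, 178, 654, 3465 and 837 CPM. In that group the 6 granulosa markers summed to 405, 211, 330.2, 1045 and 199.8 CPM, against 208, 188, 275, 155 and 289 CPM in early theca-like cells and at least 9728 CPM in antral-like cells, and Inha stood at 305, 129, 229, 914 and 116 CPM, against 34.2, 63.8, 96.1, 22.4 and 44.9 CPM. Gsta4 is a granulosa gene too, and the part of granulosa RNA in its steroidogenic level was not tested.

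**Figure D4:**
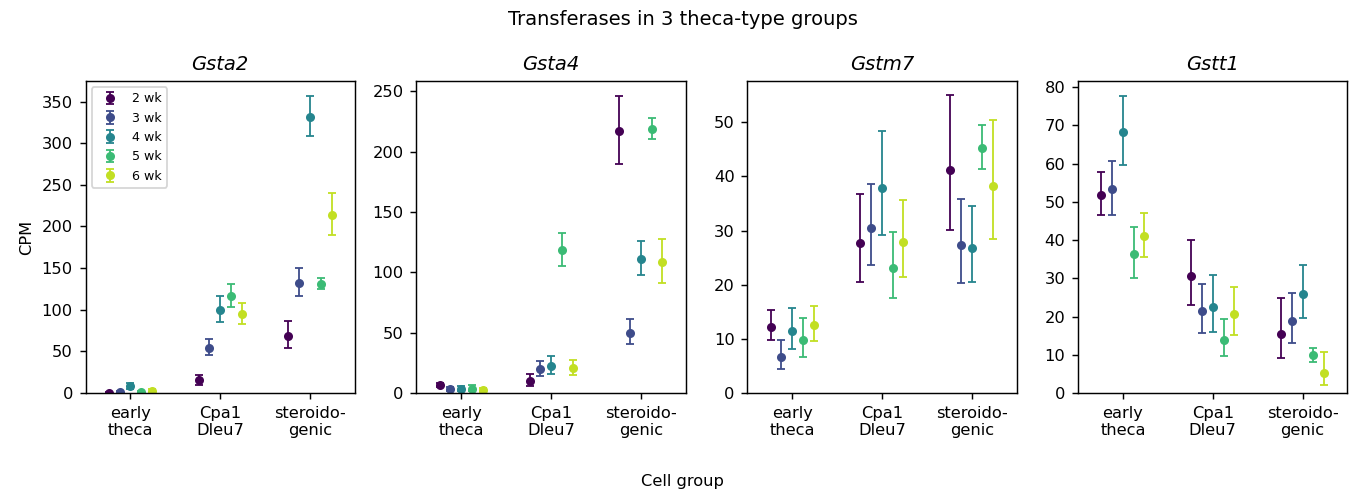
CPM of Gsta2, Gsta4, Gstm7 and Gstt1 in early theca-like cells, the Cpa1 Dleu7 cluster and steroidogenic theca-like cells, with 1 point per library coloured by age and exact Poisson 95% intervals. Gsta2 is near 0 in early theca-like cells and 68.6 to 332 CPM in steroidogenic cells, while Gstt1 is highest in early theca-like cells in every library.

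Steroidogenic theca-like cells themselves showed no transferase past 2-fold at 5 wk over 2 wk among 8 tested, where 11.9% of 6332 genes were (7.94% higher and 3.98% lower). Gsta2 was nearest, at 1.91 (1.52 to 2.45), and its highest level came at 4 wk. The 2 wk library held 61 of these cells and the 5 wk library 494. At a resolution of 0.6 the group also held the Cpa1 and Stc1 cluster of 635 cells. There Gsta2 and Gsta4 were past the limit, at 3.55 and 2.23. Early theca-like cells had none of 4 tested, where 3.03% of 5506 genes were (1.53% higher and 1.51% lower), and Gstm1 and Gstm2 were 0.636 and 0.661.

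In the stromal-like class, Gsta2 and Gsta3 were higher at 5 wk than at 2 wk and Gstm6 was lower. Gsta2 was 1.62, 6.15, 17.4, 19.0 and 10.3 CPM and Gsta3 1.70, 2.69, 7.36, 9.44 and 8.08 CPM over the 5 ages. The ratios were 11.8 (9.22 to 15.2) for Gsta2, 5.54 (4.29 to 7.24) for Gsta3 and 0.490 (0.358 to 0.662) for Gstm6, so that 3 of 10 transferases passed 2-fold against 5.32% of 11085 genes (3.27% higher and 2.05% lower). Cyp17a1 went in the same class from 14.6 to 179.7 CPM, and 6 of 7 tested steroidogenic genes were past 2-fold higher. The class contained 1001 cells that the second clustering placed in the Cpa1 Dleu7 cluster, the steroidogenic theca-like group or no named group. These held 69.8% of its Gsta2 UMIs, 83.7% of its Cyp17a1 UMIs and 81.3% of its Cyp11a1 UMIs. With these cells left out, Cyp17a1 went from 14.5 to 7.76 CPM, a ratio of 0.536, and the Cyp11a1 ratio was 1.28. Without them Gsta2 was 0.983, 2.37, 6.44, 3.40 and 4.45 CPM, with a ratio of 3.46. Gsta3 was 1.498, 2.59, 7.56, 10.0 and 8.17 CPM, with a ratio of 6.70. Gstm6 stayed past 2-fold at 0.451 (0.299 to 0.662), from 33 and 142 UMIs at 5 and 2 wk. In the whole class Gstm6 was 4.42 and 2.17 CPM at 2 and 5 wk, against 4.92 and 3.65 CPM in hematopoietic-like cells. The part of free RNA in the stromal Gstm6 level was not tested. The 1001 cells held 50.9% of the Gsta4 UMIs of the class, whose ratio was 1.75 with them and 0.665 (0.541 to 0.813) without them.

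Gsta3, whose product protects the mouse liver from aflatoxin, was highest in pericytes and in granulosa cells of resting follicles. Pericyte-like cells, the contractile cells of small vessels, held 47.8, 26.4, 44.6, 80.3 and 73.9 CPM, and primordial-like granulosa cells 54.0, 35.2, 44.3, 37.7 and 15.0 CPM. These 2 groups overlapped each other, and no other group's range over libraries reached that of the pericyte-like cells. The groups ran apart with age, since the primordial-like value was lowest at 6 wk and the pericyte-like values at 5 and 6 wk were above all earlier ones. Stromal groups joined the later ages, with Cxcl12 stromal-like cells at 2.93, 5.90, 9.48, 17.6 and 12.2 CPM and Col11a1 stromal-like cells at 1.01, 1.82, 4.25, 13.1 and 7.15 CPM.

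Gstt1 was highest in smooth muscle. Contractile smooth muscle-like cells held 79.4, 112, 171, 153 and 152 CPM and perifollicular smooth muscle-like cells 94.2, 111, 148, 151 and 132 CPM, against 6.89, 9.20, 18.5, 4.52 and 5.97 CPM in blood endothelial-like cells. The smooth muscle ranges overlapped those of several groups, among them the surface epithelial-like cells (73.1, 134, 161, 122 and 141 CPM) and the Col14a1 stromal-like cells (76.2, 129.8, 166, 115 and 135 CPM). The surface epithelium, the outer layer of the ovary, also held Gsta4 at 204, 176, 200.1, 227 and 168 CPM and Gstm2 at 633, 674, 482, 610.1 and 703 CPM, and neither was highest at 2 wk there. Rete ovarii-like cells, from the epithelial tubules near the ovary's hilum, were too few for a comparison over ages (91 cells, with at least 10 in 2 libraries). With the libraries summed, their Gstm2 was 2197 CPM (95% interval 2112 to 2286), their Gstm1 1386 CPM (95% interval 1319 to 1457), their Gstm7 82.2 CPM (95% interval 66.3 to 101) and their Gsto1 120.2 CPM (95% interval 101 to 142), each above the summed level of every one of the 28 groups. Most of these cells came from the 2 wk library (54), in which Gstm1, Gstm2 and Gstm7 were also highest in many other groups.

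Gstp1 and Gsto1 had the smallest fold between the highest and the lowest group among the 10 genes, 4.33 and 5.63. Gsto1, an omega transferase that reduces dehydroascorbate, ranged from 15.3 CPM in surface epithelial-like to 86.1 CPM in the Cpa1 Dleu7 cluster. Its level over all cells was 47.8, 50.1, 56.4, 53.5 and 52.0 CPM. Gstp1, the pi transferase, had 1 pattern in nearly every group, a dip at 3 and 4 wk. Over all cells it was 14.4, 6.94, 6.99, 18.5 and 18.9 CPM, and in 26 of 28 groups both the 3 wk and the 4 wk library were below each of the others. In 1.02% of 14981 genes, Gstp1 included, the 3 and 4 wk levels over all cells were both at most 0.5 times each of those at 2, 5 and 6 wk. The 2, 3 and 4 wk tables were made with 1 version of the counting program and the 5 and 6 wk tables with another. Gstp1 shares 68.0% of the 91-base windows at the end of its transcript with its neighbour Gstp2 or with genes not in the count tables, and the counting program sets aside a read that fits more than 1 gene. Gsta2 shares 9.76% of its windows with Gsta1, Gm10639 and Gm3776, and the other 8 genes share none.

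**Figure D5:**
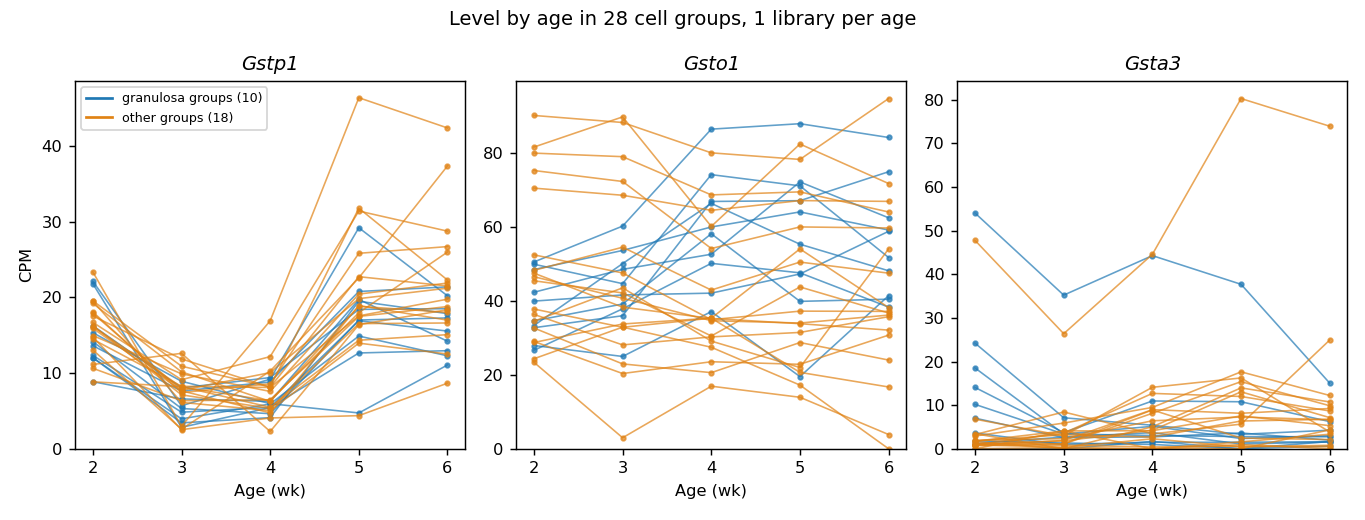
CPM of Gstp1, Gsto1 and Gsta3 against age (wk) in 28 cell groups, with 1 line per group, 10 granulosa groups in blue and 18 other groups in orange, and 1 library per age. The Gstp1 lines dip together at 3 and 4 wk, the Gsto1 lines have no common course, and the Gsta3 panel is led by the pericyte-like line (orange, up to 80.3 CPM at 5 wk) and the primordial-like line (blue, 54.0 CPM at 2 wk).

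The other genes of glutathione biology were read from lists. The list of other transferases held 16 of the 17 in the count tables, without Gstt4, and 10 were tested between primary-like and antral-like cells, where none was past 2-fold higher and 1 was lower, Gstk1, the mitochondrial kappa transferase, at ratios of 0.124 to 0.263. The median log2 ratio of that list was -0.32, against 0.46 for the 9 transferases of the set and 0.11 over all genes. None of 7 genes of glutathione synthesis and turnover and none of 8 tested NRF2 response genes was past the limit there. Of 5 glutathione peroxidases, 1 was lower in primary-like cells, the secreted enzyme Gpx3, at 0.225 to 0.490. Of 8 steroidogenic genes 4 were lower, among them Cyp19a1, the aromatase that forms estrogen, at 0.0147 to 0.208. All 4 are leading genes of the antral-like cluster, so their direction is not independent of the grouping.

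In remodeling-like over antral-like cells, none of 9 other transferases and none of the synthesis or NRF2 genes passed, Gpx3 was higher at 2.84 to 7.01 and Gpx7 was lower at 0.247 to 0.466. Of 7 tested steroidogenic genes 3 were lower, all of them leading genes of the antral-like cluster. In steroidogenic over early theca-like cells, 1 of 7 other transferases was higher, the membrane-bound Mgst1 at 2.87 to 10.4. Me1, the malic enzyme that supplies NADPH, was the 1 of 9 tested NRF2 response genes past the limit, at 8.89 to 21.3, and no glutathione synthesis gene or peroxidase passed. Steroidogenic genes were higher in 5 of 6 tested, which include markers that named the group.

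With age in granulosa-like cells, the other transferases did not share the course of the mu genes of the set. Of 11 tested, 4 were past 2-fold higher at 5 wk than at 2 wk and none lower, with Mgst2, a microsomal enzyme that forms leukotriene C, at 20.0, Gstk1 at 4.13, Hpgds, a prostaglandin D synthase, at 2.03 and Gstt2 at 2.02. The median log2 ratio of this list was 0.09. It included further mu genes. Over all cells from 2 to 6 wk, Gstm5 was 106, 120, 110, 103 and 111 CPM and Gstm4 5.63, 4.15, 5.52, 4.53 and 4.67 CPM. None of 8 glutathione synthesis and turnover genes passed, nor did any NRF2 response gene but Nfe2l2, which encodes NRF2 itself and was lower at 0.452. Of the peroxidases Gpx3 was higher, at 10.7. Nfe2l2 was also past 2-fold lower within antral-like (0.468) and remodeling-like cells (0.379), and among 8 tested NRF2 response genes none passed within primary-like cells. In stromal-like cells no other transferase passed, Srxn1, which restores peroxiredoxins, was higher at 3.69, and Nqo1, a quinone reductase, was lower at 0.420. In steroidogenic theca-like cells Gstk1, Mgst3 and Mgst1 were higher at 3.44, 3.26 and 2.81 of 5 tested. So were Hmox1, Gclc and Me1 of 8 NRF2 response genes, at 4.50, 2.32 and 2.03. Each of these genes was highest at 5 wk and was nearer its 2 wk level at 6 wk. Mgst1 was 306, 151, 197, 860 and 271 CPM and Hmox1 30.2, 47.6, 47.0, 136 and 16.5 CPM. The 61 cells at 2 wk held 11 UMIs of Gstk1 and 33 each of Mgst3 and Hmox1.

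The transferases were also compared with all other genes by the correlation of log2(CPM + 1) over the 23 named groups, across 12168 genes. These r values describe groups that share libraries and depth, and no p is given. Gsta4 was most like Rhox8, a homeobox gene (r = 0.962), Sh2d4a (0.939) and Fbxo16 (0.919). Gsta2 was most like Plin1, which coats lipid droplets and is 1 of the theca markers (0.903), Sct, which encodes secretin (0.901), and Cpa1, a carboxypeptidase (0.866). Gstm6 was nearest to Tmx2 (0.923), Ebag9 (0.913) and the kinase gene Cdk5 (0.888). Gstm1 was nearest to Acaa2, a mitochondrial thiolase of fatty acid oxidation (0.883), the growth factor receptor gene Fgfr2 (0.846) and Snhg10 (0.842), and Gstm2 to Tada2b (0.878), Hunk (0.862) and 2610301B20Rik (0.853). Gstm7 was nearest to Bag1 (0.895), Tecr (0.874) and Rmnd1 (0.873). Gstt1 was nearest to Cacnb3 (0.903), Rarres2 (0.901), which is 1 of the markers of remodeling granulosa cells, and Vit (0.851). The weakest likenesses were those of Gsta3 to Kazn (0.810), Art3 (0.794) and Rasd1 (0.749), of Gstp1 to Smim11 (0.793), Nenf (0.783) and Polr2i (0.747), and of Gsto1 to Mmd2 (0.742), Ergic1 (0.738) and Pycrl (0.735). Within the set, r was 0.811 between Gstm1 and Gstm2, 0.752 between Gstm6 and Gstm7, 0.819 between Gstm6 and Gsta4 and -0.362 between Gstm6 and Gstt1.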

How the data were processed

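Single-cell RNA-seq was measured in 5 libraries of mouse ovary cells, 1 per age (2, 3, 4, 5 and 6 wk). The authors deposited filtered gene-by-cell tables of raw UMI counts per library, made with Cell Ranger against mm10. Per the file headers, version 3.1.0 was used at 2, 3 and 4 wk and version 6.0.1 at 5 and 6 wk. The submitters' processing notes name Cell Ranger 3.1.0 and Seurat 4.1.0. All cells in the deposited tables were kept, 48163 in all, and 162 to 555 cells per library that were called doublets (Scrublet in Scanpy 1.11.5) were left in and removed as an alternative. Counts were integrated over libraries with Seurat 5.3.0 in R 4.3.3 (2000 variable genes without the 27 transferases, 30 components, resolution 1), and granulosa and mesenchymal cells were clustered again.

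A cluster was named when at least 3 markers of a list were detected and, in the second clustering, their mean z-score was at least 1. It stayed unnamed when its leading genes held more markers of another list, or when doublets, 1 library or cells of few UMIs made it up. The limits of naming were set after the clusters were seen. The transferases, the pathway lists, the markers and the comparisons were chosen with earlier results of these data known.

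UMIs were summed per group and library and given as CPM of the summed UMIs. Ratios carry exact 95% intervals conditional on the sum of both counts and shares carry exact Clopper-Pearson intervals, and all of them cover counting error only. With 1 library per age no p-value was computed. A gene was tested for size in a comparison when it held at least 200 UMIs, and it counted as past the limit at a ratio of at least 2 or at most 0.5, in the same direction in all 5 libraries for comparisons of cell groups. Named beside the 10 transferases are the 3 genes most like each by correlation (at least 1000 UMIs, pseudocount 1) and, from each pathway list, up to 4 genes with the largest ratio. Tested on simulated counts in which 200 genes were changed 4-fold, the rule found 198 of them in primary-like over antral-like cells (10414 genes), 188 in remodeling-like over antral-like cells (10573 genes) and 198 in steroidogenic over early theca-like cells (9681 genes). It found all 200 at 5 wk over 2 wk in granulosa-like (11489 genes), stromal-like (11085 genes) and steroidogenic theca-like cells (6332 genes). Of the unchanged genes it called 15 of 6132 in the last comparison and 0 in the others. The simulated counts were Poisson draws from a shared profile, with counting error only and no variation between libraries or cells. They therefore cannot show how the rule fares where libraries differ for other reasons. Alternatives were a resolution of 0.6, no doublets, stricter cell filters (1000 genes, under 10% mitochondrial UMIs), the mean of per-cell CPM, another denominator, a limit of 1.5-fold and each library left out. Python 3.11.15 with SciPy 1.17.1 was used.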

Additional observations from a re-analysis of the deposited data

Results flagged for a closer look

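Gsta3 was the 1 transferase past 2-fold in opposite directions in 2 cell classes over the same ages. The 5 wk over 2 wk ratio of its CPM was 5.54 in stromal-like cells and 0.225 in granulosa-like cells, each taken as a whole class. Within primary-like cells alone it was 0.767 (0.515 to 1.11), which is within the limit. Primordial-like cells, the granulosa group with the highest Gsta3, went from 54.0 CPM at 2 wk to 37.7 CPM at 5 wk, and from 316 to 78 cells. The part of class make-up in the granulosa ratio was not tested. The difference between the classes was not tested either, because each age was 1 library.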

How the results depend on the processing

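Of 270 values recomputed under another setting, 236 stayed within their spread or interval (within 1.5 times for a count), 34 moved and 0 turned direction among the genes past the limit. A count was judged by its size alone, so it could stay while its genes changed. At a resolution of 0.6, primary-like over antral-like cells kept 2 genes but shared only 1 with the main setting. The same held for remodeling-like over antral-like cells. The number of transferases past 2-fold at 5 wk over 2 wk in steroidogenic theca-like cells was the least stable, at 0 as reported, 2 at a resolution of 0.6 (Gsta2 and Gsta4), 1 with the mean of per-cell CPM (Gsta2) and 3 with a limit of 1.5-fold. The 1.5-fold limit also gave 5 in stromal-like, 5 in primary-like and 2 in early theca-like cells. In remodeling-like over antral-like cells, the mean of per-cell CPM gave 1 (Gsta4). Leaving out 1 library at a time gave 2 to 3 genes in primary-like over antral-like cells (Gstm1 added without 2 wk, Gsta3 without 3 wk), 2 to 3 in remodeling-like over antral-like cells (Gstm7 added without 3 wk) and 4 to 4 in steroidogenic over early theca-like cells. Without doublets, stromal-like cells kept Gsta2 and Gsta3, lost Gstm6 and added Gsta4 (2.08). With doublets kept and the 1001 cells of theca-type or unnamed clusters left out, the Gsta4 ratio was 0.665. With cells of at least 5000 UMIs thinned to 5000 and the others left out, 4 of the 10 transferases had the same leading group by share of cells. The comparisons within single stages and the stromal class without those 1001 cells were chosen after seeing the data. The causes of these shifts were not tested. No paired analysis was possible because no result comes from a test, and ratios between cell groups were taken within each library. Depth limits Gsta2 in early theca-like cells, where 2 libraries held 2 UMIs each.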
